A study of Mus musculus with 13 samples.

Results

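The 43 genes described here encode the machinery of asparagine-linked (N-linked) glycosylation, and they were chosen by name as the genes of sugar nucleotide supply, dolichol-linked oligosaccharide assembly, the oligosaccharyltransferase and glycan quality control. All 43 were measured, each by 1 probe set that carries a single gene symbol, among 22180 genes measured in all. They fall into 6 roles, namely sugar nucleotide supply (8 genes), dolichol carriers (6), assembly on the cytosolic face of the endoplasmic reticulum (6), assembly on its lumenal face (6), the oligosaccharyltransferase (8), and trimming and quality control (9). RNA came from 13 subcutaneous tumors grown from the Panc02 line of mouse pancreatic ductal adenocarcinoma, each tumor from a different male C57BL/6 mouse. The 4 groups were DIO + HMB (n = 4), DIO (n = 3), control + HMB (n = 3) and control (n = 3). A high-fat diet made the DIO (diet-induced obesity) mice obese, control mice ate a diet low in fat, and HMB (β-hydroxy-β-methylbutyrate, a metabolite of leucine) was mixed into the diet of the supplemented groups. The study injected its mice with gemcitabine or with vehicle, and the labels do not say which these 13 mice received, nor their age. The model is 1 cell line grown under the skin, so the tumors hold no native pancreatic site, and bulk RNA mixes tumor cells with host cells. In such RNA, fewer cells of a type and less RNA per cell cannot be told apart.

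N-linked glycans are built in advance on dolichol, a long lipid of the endoplasmic reticulum membrane, and then moved as a block onto asparagine residues of proteins that enter the secretory pathway. Cytosolic enzymes make the activated sugars, a chain of glycosyltransferases adds them to the lipid on the cytosolic and then on the lumenal face, and the oligosaccharyltransferase transfers the finished oligosaccharide. Glucosidases and mannosidases then trim it, lectin chaperones hold the glycoprotein until it is folded, and Golgi enzymes branch it. Secretory cells and tumor cells depend on this route for their surface receptors and matrix proteins, and several of its genes are known targets of the unfolded protein response, which senses unfolded protein in the endoplasmic reticulum.

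The unfolded protein response acts on many promoters through the endoplasmic reticulum stress element (ERSE), so the windows from 250 bases before to 50 bases after the transcription start in RefSeq (GRCm38.p6) were searched for it. The 43 genes lie on 15 chromosomes, and 38 of them had a window (Gmppb, Dpagt1, Alg2, Alg11 and Tusc3 had none). ERSE is CCAAT, 9 bases of any kind and CCACG, read on both strands. It was present in 3 of the 38 genes (7.89%), against 37 of 27025 genes with a window in the whole annotation (0.137%). The 3 genes were Alg12, a lumenal mannosyltransferase, and Calr and Canx, the lectin chaperones calreticulin and calnexin. The sequences below run 5′ to 3′ on the gene's strand and start 5 bases before the element, which is in capitals, and end 1 base before the transcription start. They are shown because they hold the letters of a known element of the unfolded protein response, and the values of these genes are given with their roles. The Alg12 stretch is chr15:88819319-88819543 on the minus strand, and its element begins 220 bases before the start. The Calr stretch is chr8:84846932-84847098 on the minus strand, where the element lies on the opposite strand and begins 162 bases before the start. The Canx stretch is chr11:50325674-50325823 on the minus strand, with the element 145 bases before the start.
Alg12: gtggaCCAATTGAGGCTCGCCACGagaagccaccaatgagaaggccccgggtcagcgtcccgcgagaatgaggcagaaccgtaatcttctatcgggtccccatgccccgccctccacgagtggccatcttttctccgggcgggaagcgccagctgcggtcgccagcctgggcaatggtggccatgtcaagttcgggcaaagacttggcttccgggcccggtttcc
Calr: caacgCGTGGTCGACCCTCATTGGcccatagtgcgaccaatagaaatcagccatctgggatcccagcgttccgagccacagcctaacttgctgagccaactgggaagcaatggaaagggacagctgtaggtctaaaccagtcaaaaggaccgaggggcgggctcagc
Canx: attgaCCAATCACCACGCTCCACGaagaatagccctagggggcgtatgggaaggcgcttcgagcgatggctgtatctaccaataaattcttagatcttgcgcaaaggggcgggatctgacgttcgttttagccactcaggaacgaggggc
A match is a description of letters and not of a used site. The genes and the motifs were chosen by name, so the shares are a description and were not tested. ERSE-II was present in 0 of the 38 genes, against 0.0444% of all genes with a window. The unfolded protein response element core TGACGTGG was present in 0 of 38, against 0.714%, and the amino acid response element core TGATGNAAN in 0 of 38, against 4.50%. Among 13 genes of a list of the unfolded protein response that had a window, 5 held ERSE, namely Hspa5, Hsp90b1, Pdia6, Dnajc3 and Creld2. ERSE-II was present in 2 of the 13 (Dnajb11 and Herpud1), the amino acid response element core in 1 (Herpud1) and the unfolded protein response element core in 0.

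The arrays were alike in general, with correlations between 0.960 and 0.983 over all probe sets. The 8 epithelial and ductal markers were uneven, with log2 values of 8.75 to 9.62 for Krt8, 8.99 to 9.97 for Krt18 and 8.82 to 9.96 for Sox9. Cdh1 lay between 7.04 and 8.25 and Muc1 between 4.98 and 7.69. Epcam lay between 3.84 and 6.47, Krt19 between 3.28 and 6.56 and Krt7 between 2.70 and 7.15. Their medians over the 13 arrays (4.24, 3.96 and 3.53) were below the median of all genes in every array (4.27 to 4.65). The arrays differed in the width of their value distribution, measured as the standard deviation (SD) of the log2 values over all genes. Width averaged 2.60 ± 0.02 in DIO + HMB, 2.56 ± 0.04 in DIO, 2.60 ± 0.02 in control + HMB and 2.52 ± 0.02 in control tumors (SD). The 3 control arrays and DIO replicate 2 were the narrowest of the 13. A wider array places a brighter gene higher and a dimmer gene lower, so values under 2 ways of removing width are given beside the results below, and the part of width in the results was not tested further.

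To ask how diet and HMB related to the glycosylation genes, each of the 4 groups was compared in 1 limma model over all 22180 genes. No gene passed an adjusted p of 0.05 (Benjamini-Hochberg over all genes) in any of 8 tests, which is 0% of those tested. Differences are therefore given below as log2 values with their standard error (SE) and as counts of genes at an unadjusted p under 0.05, beside the share of all genes that met the same mark. The 3 comparisons against control share the same 3 control arrays and are not independent of each other.

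In DIO + HMB relative to control tumors, 36 of the 43 genes were higher, with a median log2 difference of 0.25 and a range of -0.42 to 0.57. The median of all genes was 0.01, and 51.2% of them were higher. At an unadjusted p under 0.05, 13 genes were higher, against 8.00% of all genes, and 0 were lower, against 6.76%. The values of the 2 groups did not overlap for 15 genes, all higher, where 8.35% of all genes were higher and 6.59% lower without overlap. The genes with unadjusted p under 0.05 were Mpi, Alg11, Gfpt1, Mgat2, Alg12, Alg9, Dpagt1, Alg10b, Alg2, Gmppb, Stt3a, Pmm2 and Calr, in order of p. The lowest adjusted p among the 43 was 0.188 by limma, for Mpi. The count of 13 was 7 without DIO + HMB replicate 4 and 14 without DIO replicate 2. Here and below, the share of all genes was not counted when single arrays were left out.

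In DIO relative to control tumors, 35 of the 43 genes were higher, with a median of 0.19 and a range of -0.34 to 0.47. All genes had a median of 0.02, and 53.8% of them were higher. With an unadjusted p under 0.05, 9 genes were higher, against 4.31% of all genes, and 0 were lower, against 3.44%. These were Stt3a, Gfpt1, Alg9, Alg10b, Alg13, Alg12, Mpi, Dpagt1 and Mgat2. The values did not overlap for 8 genes, all higher, where 6.04% of all genes were higher and 4.95% lower without overlap. The lowest adjusted p among the 43 was 0.591, for Stt3a. The count of 9 changed when single arrays were left out, from 3 without DIO replicate 1 to 12 without control replicate 3. It was 4 without DIO replicate 3, 4 without control replicate 1 and 5 without control replicate 2. The share of all genes was not counted in these fits.

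In control + HMB relative to control tumors, 39 of the 43 genes were higher, with a median of 0.27 and a range of -0.30 to 0.64. All genes had a median of 0.04, and 55.4% of them were higher. At an unadjusted p under 0.05, 13 genes were higher, against 7.22% of all genes, and 0 were lower, against 4.22%. These were Mgat2, Alg9, Alg12, Alg11, Mpi, Gfpt1, Dpagt1, Alg13, Alg10b, Stt3a, Mgat1, Man1b1 and Mogs. The values did not overlap for 20 genes, all higher, where 11.4% of all genes were higher and 6.07% lower without overlap. The lowest adjusted p among the 43 was 0.297, for Mgat2. The count of 13 was 7 without control replicate 1, 7 without control + HMB replicate 2 and 16 without DIO replicate 2.

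The glycosylation genes are brighter than most, and brighter genes as a class were higher outside the control group. Among the 11090 genes at or above the median mean level, the median difference from control was 0.10 in DIO + HMB, 0.06 in DIO and 0.13 in control + HMB tumors. In that class 65.7%, 61.1% and 71.2% of genes were higher than control, beside 83.7%, 81.4% and 90.7% of the 43. At an unadjusted p under 0.05, 13.4%, 5.87% and 12.1% of the class were higher in the same order of groups. The mean of the control group was the lowest of the 4 for 32 of the 43 genes (74.4%), against 34.1% of all genes and 48.5% of the brighter class. All 3 control arrays lay below the other 10 for 4 of the 43 genes (9.30%), namely Gfpt1, Alg9, Alg10b and Mgat2, against 1.79% of all genes and 3.26% of the brighter class. Over the 4 groups together, 7 of the 43 genes (16.3%) had an unadjusted p under 0.05 in the F test, against 9.40% of all genes, with adjusted p between 0.488 and 0.527. They were Alg11, Mpi, Gfpt1, Mgat2, Alg9, Alg12 and Dpagt1.

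**Figure D1:**
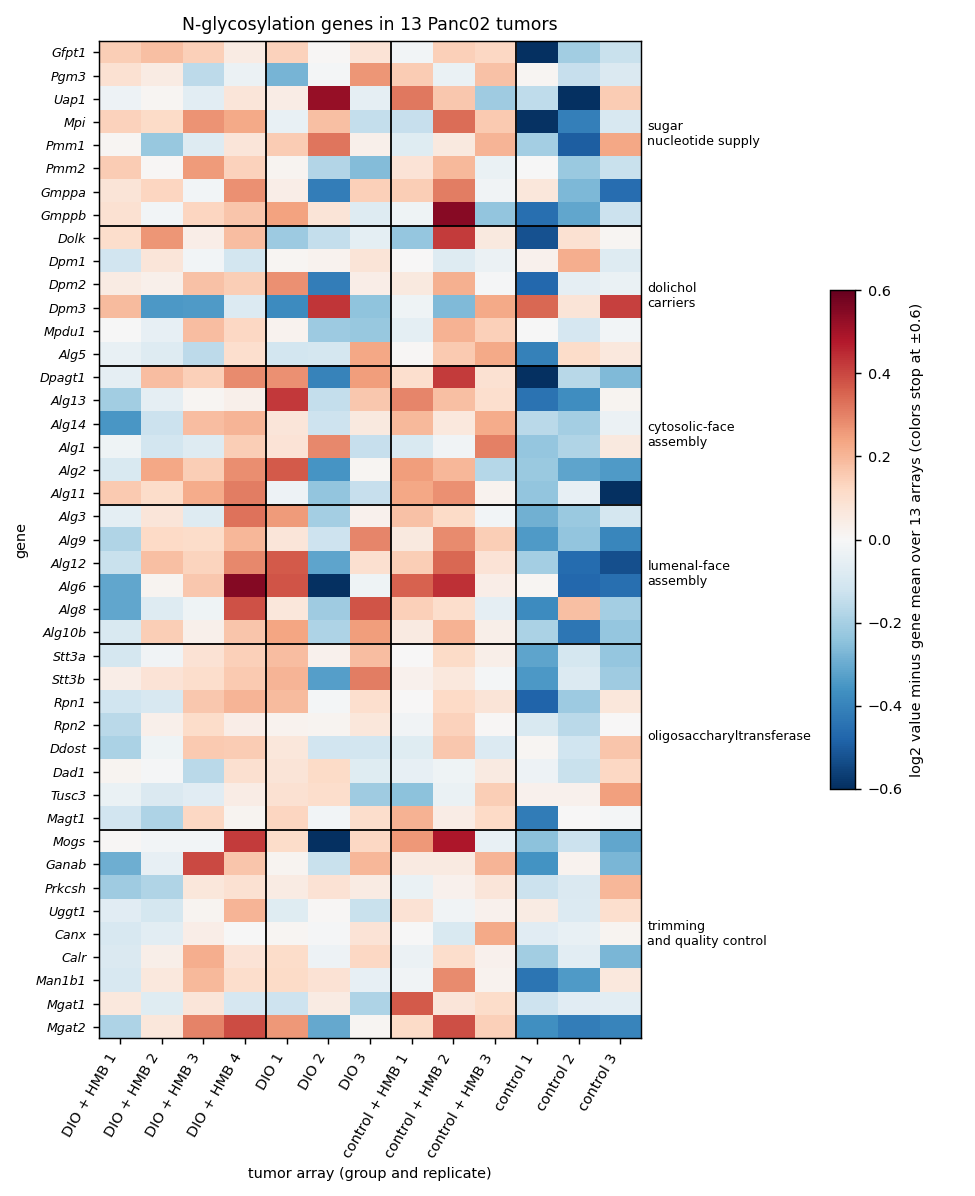
Log2 value of each of the 43 genes minus its own mean over the 13 arrays, by tumor (columns, in groups) and role (rows); red is above and blue below the gene's mean, and colors stop at 0.6 to either side. Blue cells gather in the 3 control columns, most of all among sugar nucleotide and assembly genes, while the oligosaccharyltransferase rows from Rpn2 to Dad1 are pale.

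Array by array, the median of the 43 centered values was -0.06, 0.005, 0.10 and 0.15 in DIO + HMB, 0.08, -0.10 and 0.05 in DIO, 0.05, 0.15 and 0.06 in control + HMB, and -0.22, -0.14 and -0.08 in control tumors (replicates in order). The control arrays were 3 of the 4 lowest, and DIO replicate 2 lay between control replicates 2 and 3. Control replicate 1 alone held the lowest of the 13 values for 17 of the 43 genes, while it did so for 10.0% of all genes and 14.3% of the brighter class. Control replicates 2 and 3 held the lowest value for 4 and 5 of the genes. They did so for 12.8% and 7.76% of all genes, and for 17.1% and 9.41% of the brighter class. Without control replicate 1, the median difference from control was 0.15 in DIO + HMB tumors. The narrowest arrays were DIO replicate 2 (2.51) and the 3 controls (2.51, 2.51 and 2.54), whose medians were also the lowest. The widest array, DIO + HMB replicate 3 (2.62), had a median of 0.10, below the 0.15 of DIO + HMB replicate 4 (2.61).

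**Figure D2:**
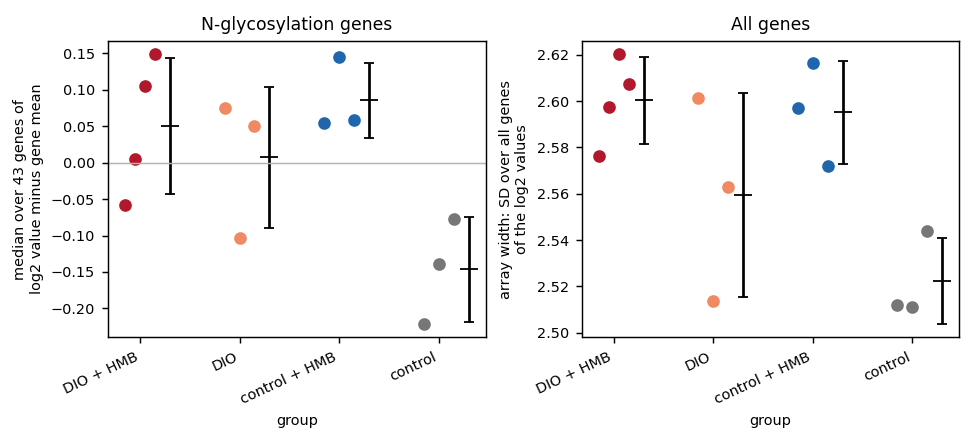
Left, the median over the 43 genes of the log2 value minus the gene's mean, by tumor array; right, array width (SD of log2 values over all genes); points are arrays, and the bars show the group mean and SD. The 3 control arrays, between -0.22 and -0.08 on the left, are also narrow on the right, as is DIO replicate 2.

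The sugar nucleotide genes were higher than control as a group, with medians of 0.30 in DIO + HMB (8 of 8 higher), 0.34 in DIO (7 of 8) and 0.35 in control + HMB tumors (8 of 8). Gfpt1, the rate-limiting enzyme of the hexosamine pathway that leads to UDP-GlcNAc, had log2 values of 7.69, 7.72, 7.68 and 7.58 in DIO + HMB, 7.68, 7.55 and 7.62 in DIO, 7.52, 7.68 and 7.66 in control + HMB, and 6.87, 7.33 and 7.40 in control tumors. Its 3 control values were the lowest of the 13, with control replicate 1 far below the other pair. The difference from control was 0.47 ± 0.13 in DIO + HMB (SE, unadjusted p = 0.00374, adjusted p = 0.195 by limma), 0.41 ± 0.14 in DIO and 0.42 ± 0.14 in control + HMB. Without control replicate 1 it was 0.30 in DIO + HMB, 0.25 in DIO and 0.25 in control + HMB tumors.

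Mpi, which turns fructose 6-phosphate into mannose 6-phosphate and so feeds GDP-mannose, had values of 6.53, 6.51, 6.67 and 6.62 in DIO + HMB, 6.35, 6.57 and 6.25 in DIO, 6.25, 6.73 and 6.55 in control + HMB, and 5.80, 5.98 and 6.30 in control tumors. All DIO + HMB values exceeded all control values, while the DIO and control + HMB values overlapped control replicate 3. Relative to control, the gene differed by 0.55 ± 0.15 in DIO + HMB (SE, unadjusted p = 0.00279, adjusted p = 0.188 by limma), a 1.47-fold level. Pmm2, the phosphomannomutase that follows Mpi, had 7.84, 7.70, 7.95 and 7.83 in DIO + HMB, 7.71, 7.52 and 7.43 in DIO, 7.77, 7.89 and 7.65 in control + HMB, and 7.69, 7.47 and 7.56 in control tumors. Unlike most of its role, Pmm2 was not higher in DIO than in control tumors (-0.02 ± 0.12). Gmppb, which makes GDP-mannose, was higher than control by 0.39 ± 0.17 in DIO + HMB tumors (unadjusted p = 0.0411). Uap1, the last enzyme of UDP-GlcNAc synthesis, spread widely within groups, from 7.52 to 8.10 in DIO and from 6.80 to 7.72 in control tumors. Pgm3, Pmm1 and Gmppa had unadjusted p of 0.05 or over in each comparison against control.

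The dolichol carrier genes did not share this direction, with medians of 0.07 in DIO + HMB (4 of 6 higher), -0.01 in DIO (3 of 6) and 0.17 in control + HMB tumors (4 of 6) relative to control. None of the 6 had an unadjusted p under 0.05 in these comparisons. Dpm3, a small subunit that anchors the synthase of dolichol-phosphate-mannose, was the gene furthest below control. It had values of 4.42, 3.88, 3.89 and 4.15 in DIO + HMB, 3.85, 4.66 and 3.99 in DIO, 4.20, 3.97 and 4.46 in control + HMB, and 4.57, 4.30 and 4.64 in control tumors, so each group overlapped the control values. Its difference was -0.42 ± 0.21 in DIO + HMB tumors (SE, unadjusted p = 0.0638, adjusted p = 0.361 by limma). Dpm3 is also the dimmest of the 43 genes, with a mean of 4.23. Dpm1, the catalytic subunit of that synthase, differed by -0.10 ± 0.11, and Dpm2, the remaining subunit, by 0.29 ± 0.16 in the same comparison. Mpdu1, which is needed for the use of dolichol-linked sugars in the lumen, had 8.19, 8.15, 8.38 and 8.32 in DIO + HMB, 8.22, 7.98 and 7.97 in DIO, 8.14, 8.40 and 8.34 in control + HMB, and 8.20, 8.10 and 8.18 in control tumors. Only the DIO replicates 2 and 3 stood below the rest.

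The 6 genes of cytosolic-face assembly were all higher than control in each group, with medians of 0.32 in DIO + HMB, 0.25 in DIO and 0.42 in control + HMB tumors. Dpagt1, which starts the oligosaccharide by placing GlcNAc-phosphate on dolichol phosphate and is the target of tunicamycin, had 7.30, 7.54, 7.50 and 7.64 in DIO + HMB, 7.62, 6.95 and 7.60 in DIO, 7.45, 7.77 and 7.44 in control + HMB, and 6.49, 7.18 and 7.09 in control tumors. DIO replicate 2 was the only array outside the control group to fall within the control range. Its values differed from control by 0.57 ± 0.20 in DIO + HMB (1.49-fold), 0.47 ± 0.22 in DIO (1.39-fold) and 0.64 ± 0.22 in control + HMB (1.55-fold), with adjusted p of 0.244, 0.64 and 0.332 by limma. Without control replicate 1 it was 0.36 in DIO + HMB, 0.26 in DIO and 0.42 in control + HMB tumors.

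Alg13 and Alg14 together add the second GlcNAc, Alg13 as the catalytic part and Alg14 as its membrane anchor. Alg13 had 5.04, 5.19, 5.25 and 5.28 in DIO + HMB, 5.67, 5.10 and 5.40 in DIO, 5.54, 5.43 and 5.35 in control + HMB, and 4.80, 4.87 and 5.26 in control tumors. Its DIO + HMB values lay below all 3 control + HMB values. Alg14 had 8.07, 8.30, 8.60 and 8.63 in DIO + HMB, 8.50, 8.30 and 8.48 in DIO, 8.62, 8.49 and 8.64 in control + HMB, and 8.26, 8.22 and 8.39 in control tumors. Its DIO + HMB values overlapped those of the other 3 groups, with the lowest of the 13 arrays in DIO + HMB and the highest in control + HMB. The difference from control in control + HMB tumors was 0.46 ± 0.16 for Alg13 (unadjusted p = 0.016) and 0.29 ± 0.15 for Alg14 (unadjusted p = 0.0767).

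Alg11, which adds the last mannoses on the cytosolic face, had the lowest F-test p of the 43 genes (0.0106). Its values were 6.81, 6.76, 6.87 and 6.96 in DIO + HMB, 6.62, 6.41 and 6.51 in DIO, 6.88, 6.92 and 6.67 in control + HMB, and 6.41, 6.60 and 6.01 in control tumors. Every array of the HMB-supplemented groups lay above every array of the unsupplemented groups, with 6.67 in control + HMB replicate 3 and 6.62 in DIO replicate 1 the nearest pair. The share of all genes with this separation was not counted. The difference from control was 0.51 ± 0.14 in DIO + HMB, 0.17 ± 0.15 in DIO and 0.48 ± 0.15 in control + HMB tumors. Alg2, which adds the mannoses before Alg11, was higher than control by 0.44 ± 0.17 in DIO + HMB tumors (unadjusted p = 0.0246), and Alg1, which adds the mannose before those, by 0.10 ± 0.14.

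The 6 lumenal-face genes were likewise all higher than control in each group, with medians of 0.37 in DIO + HMB, 0.31 in DIO and 0.43 in control + HMB tumors. Alg9, a mannosyltransferase that acts at 2 steps of the lumenal chain, had 6.87, 7.17, 7.16 and 7.25 in DIO + HMB, 7.13, 6.93 and 7.34 in DIO, 7.11, 7.33 and 7.20 in control + HMB, and 6.71, 6.81 and 6.66 in control tumors. All 3 control values were below the other 10. Relative to control, the gene differed by 0.38 ± 0.13 in DIO + HMB, 0.40 ± 0.14 in DIO and 0.49 ± 0.14 in control + HMB tumors, with adjusted p of 0.237, 0.595 and 0.299 by limma.

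Alg12, which adds a mannose between the Alg9 steps and holds ERSE in its promoter window, had 7.15, 7.47, 7.42 and 7.58 in DIO + HMB, 7.66, 6.97 and 7.38 in DIO, 7.43, 7.63 and 7.37 in control + HMB, and 7.08, 6.82 and 6.76 in control tumors. Only DIO replicate 2 overlapped the control values. Its values differed from control by 0.51 ± 0.17 in DIO + HMB, 0.45 ± 0.18 in DIO and 0.59 ± 0.18 in control + HMB tumors. Alg10b, which adds the final glucose that the oligosaccharyltransferase recognizes, had 7.92, 8.16, 8.04 and 8.18 in DIO + HMB, 8.25, 7.83 and 8.26 in DIO, 8.06, 8.22 and 8.05 in control + HMB, and 7.82, 7.58 and 7.78 in control tumors. Its control values were again the lowest, though control replicate 1 and DIO replicate 2 nearly met. Alg6, which adds the glucose that opens the glucose chain, varied most within groups, from 5.86 to 6.73 in DIO + HMB and from 5.48 to 6.55 in DIO, and its difference from control in control + HMB tumors was 0.58 ± 0.27 (unadjusted p = 0.0526). Alg3, the mannosyltransferase that opens lumenal assembly, and Alg8, which adds the glucose after Alg6, had unadjusted p of 0.05 or over throughout.

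**Figure D3:**
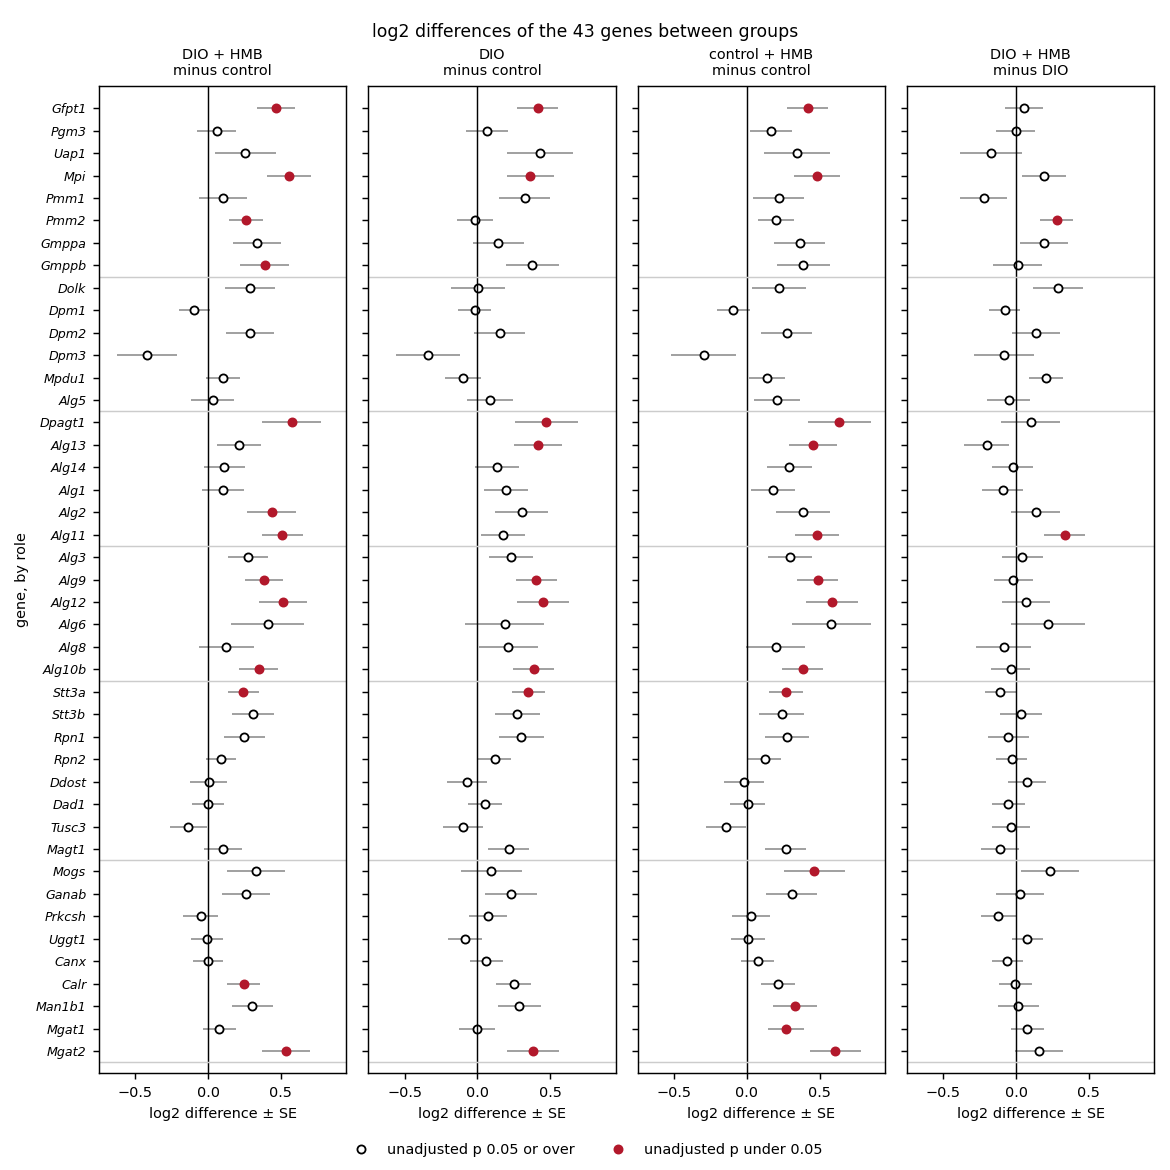
Log2 difference with its SE (bars) for each of the 43 genes, by role from top to bottom, in 4 comparisons; filled red points have an unadjusted p under 0.05 and open points do not. Against control most assembly genes lie right of 0, while in DIO + HMB minus DIO the points lie around 0 and 2 (Pmm2 and Alg11) are filled.

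The oligosaccharyltransferase genes differed less from control, with medians of 0.10 in DIO + HMB, 0.17 in DIO and 0.18 in control + HMB tumors, 6 of 8 being higher in each. Whether this role differed from the assembly roles was not tested. Stt3a, the catalytic subunit that glycosylates proteins while they are being translated, had 9.94, 10.02, 10.13 and 10.19 in DIO + HMB, 10.23, 10.07 and 10.23 in DIO, 10.04, 10.16 and 10.08 in control + HMB, and 9.73, 9.94 and 9.81 in control tumors. The DIO and control + HMB values lay above all control values, and DIO + HMB replicate 1 met control replicate 2. The difference from control was 0.24 ± 0.11 in DIO + HMB, 0.35 ± 0.12 in DIO (unadjusted p = 0.0102, adjusted p = 0.591 by limma) and 0.27 ± 0.12 in control + HMB tumors. Stt3b, the catalytic subunit that acts after translation, was higher than control by 0.31 ± 0.14 in DIO + HMB tumors (unadjusted p = 0.0529). Among the shared subunits, Rpn1 was higher by 0.30 ± 0.15 in DIO tumors (unadjusted p = 0.0695). In DIO + HMB relative to control tumors, Dad1 differed by 0.00 with a 95% interval of -0.24 to 0.24, and Ddost by 0.00 with an interval of -0.27 to 0.28. Tusc3 and Magt1 are alternative oxidoreductase subunits of the Stt3b complex. Tusc3 was lower than control by 0.14 ± 0.13 and Magt1 higher by 0.10 ± 0.13 in DIO + HMB tumors, both within their error.

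Trimming and quality control genes had medians of 0.24 in DIO + HMB (6 of 9 higher), 0.10 in DIO (7 of 9) and 0.27 in control + HMB tumors (9 of 9) relative to control. Mgat2, the Golgi enzyme that starts the branch needed for complex glycans, had 8.66, 8.91, 9.15 and 9.24 in DIO + HMB, 9.11, 8.54 and 8.86 in DIO, 8.96, 9.23 and 8.99 in control + HMB, and 8.48, 8.43 and 8.45 in control tumors. The control values were tightly grouped below the other 10 arrays. Relative to control, the gene differed by 0.54 ± 0.16 in DIO + HMB, 0.38 ± 0.18 in DIO and 0.61 ± 0.18 in control + HMB tumors (1.52-fold, unadjusted p = 0.00441, adjusted p = 0.297 by limma). Mgat1, the enzyme that acts before Mgat2, had 5.09, 4.95, 5.10 and 4.92 in DIO + HMB, 4.90, 5.07 and 4.84 in DIO, 5.39, 5.10 and 5.14 in control + HMB, and 4.90, 4.96 and 4.96 in control tumors. The control + HMB arrays were the highest 3 of the 13, with replicate 1 apart from the others. Its values differed from control by 0.27 ± 0.12 in control + HMB (unadjusted p = 0.0449) and 0.08 ± 0.11 in DIO + HMB tumors.

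Both lectin chaperones hold ERSE in their promoter windows, as printed above. Calr had 10.83, 10.95, 11.14 and 11.00 in DIO + HMB, 11.02, 10.89 and 11.04 in DIO, 10.88, 11.02 and 10.94 in control + HMB, and 10.71, 10.85 and 10.64 in control tumors. Its control replicate 2 overlapped DIO + HMB replicate 1, and the difference from control was 0.24 ± 0.11 in DIO + HMB (unadjusted p = 0.0475) and 0.25 ± 0.12 in DIO tumors (unadjusted p = 0.0567). Canx had 10.79, 10.82, 10.93 and 10.88 in DIO + HMB, 10.90, 10.88 and 10.97 in DIO, 10.88, 10.80 and 11.12 in control + HMB, and 10.82, 10.85 and 10.91 in control tumors. The 4 groups overlapped, and the Canx difference in DIO + HMB relative to control tumors had a 95% interval of -0.23 to 0.23. Whether Calr and Canx differed from each other was not tested.

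Of the trimming enzymes, Mogs, the glucosidase that removes the outermost glucose, was higher than control by 0.46 ± 0.21 in control + HMB tumors (unadjusted p = 0.0481) and ranged from 5.75 to 6.51 in DIO tumors. Man1b1, an endoplasmic reticulum mannosidase, was higher than control by 0.33 ± 0.15 in control + HMB tumors (unadjusted p = 0.0463). Ganab and Prkcsh form glucosidase II, Ganab as the catalytic subunit. Ganab was higher than control by 0.26 and Prkcsh lower by 0.05 in DIO + HMB tumors, with unadjusted p of 0.05 or over. Uggt1, which puts glucose back on misfolded glycoproteins, differed from control by -0.01 in DIO + HMB tumors, with a 95% interval of -0.25 to 0.23.

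**Figure D4:**
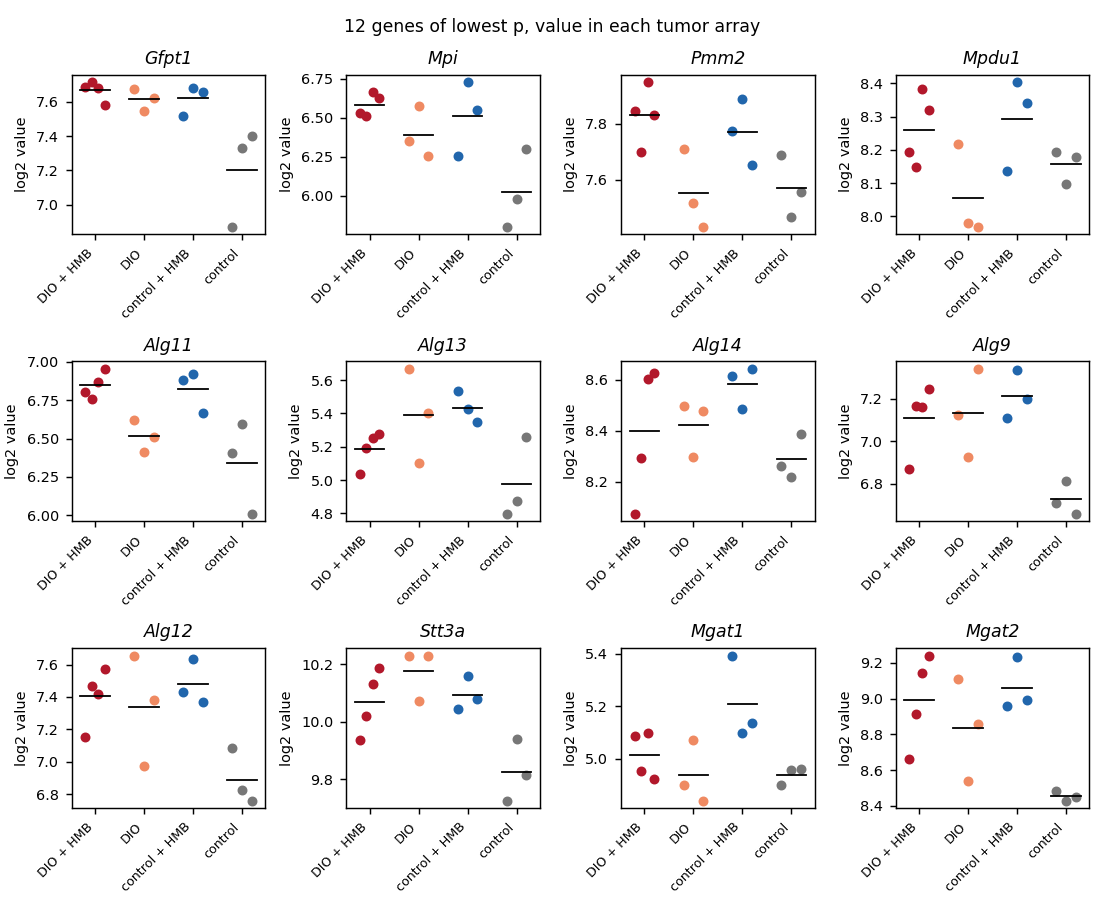
Log2 value of each tumor array (points) and group mean (lines) for 12 genes, the 3 of lowest p in each pairwise comparison, in the F test and in the interaction; each panel has its own scale. In the Gfpt1, Alg9 and Mgat2 panels the 3 control points lie below the other 10, and in the Alg11 panel both HMB groups lie above both unsupplemented groups. The share of all genes with the Alg11 pattern was not counted.

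Within obese mice, the glycosylation genes lay to both sides of 0. In DIO + HMB relative to DIO tumors, 22 of the 43 genes were higher, with a median of 0.01 and a range of -0.22 to 0.33. Of all genes, 47.9% were higher. With an unadjusted p under 0.05, 2 genes were higher, against 3.34% of all genes, and 0 were lower, against 3.75%. They were Pmm2 (0.28 ± 0.12, 95% interval 0.02 to 0.53, unadjusted p = 0.0342) and Alg11 (0.33 ± 0.14, 95% interval 0.03 to 0.64, unadjusted p = 0.0355), each with an adjusted p of 0.705 by limma. Alg11 and Dolk, the kinase that phosphorylates dolichol, were the 2 genes without overlap between the groups, both higher, where 3.57% of all genes were higher and 4.22% lower without overlap. Dolk had 5.98, 6.13, 5.91 and 6.06 in DIO + HMB tumors and 5.65, 5.73 and 5.81 in DIO tumors. These counts were near the share of all genes. By role, the lowest p belonged to Mpdu1 among dolichol carriers (0.21 ± 0.12), Alg6 among lumenal genes (0.22 ± 0.25), Stt3a among oligosaccharyltransferase genes (-0.11 ± 0.11) and Mogs among trimming genes (0.23 ± 0.20). The count of 2 was 0 without DIO replicate 2, DIO replicate 3, DIO + HMB replicate 3 or DIO + HMB replicate 4. It was 3 without DIO replicate 1. The 95% intervals of the 43 genes reached from -0.63 (Uap1) to 0.77 (Alg6), and differences within a gene's interval are not excluded by these arrays.

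Between the HMB-supplemented groups, DIO + HMB relative to control + HMB tumors, 11 of the 43 genes were higher. Their median was -0.04 and their range -0.25 to 0.07. All genes had a median of -0.02, and 44.0% of them were higher. At an unadjusted p under 0.05, 0 genes were higher, against 0.933% of all genes, and 0 were lower, against 1.92%. Without overlap, 0 genes were higher, against 1.27% of all genes, and 2 were lower, against 3.07%. These were Mgat1 (-0.19 ± 0.11) and Alg13 (-0.25 ± 0.15). In the other roles the lowest p belonged to Alg5 (-0.18 ± 0.15), Magt1 (-0.16 ± 0.13), Pgm3 (-0.11 ± 0.14) and Alg9 (-0.10 ± 0.13). The count of 11 was 24 without DIO + HMB replicate 1 and 21 without control + HMB replicate 2. DIO + HMB replicate 1 was also the array with the highest lymphocyte marker scores, a mean log2 excess over all arrays of 2.79 for B cell and plasma cell markers and 1.35 for T cell markers, and its part in the result was not tested.

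Averaged over both diets, HMB tumors had 37 of the 43 genes higher, with a median of 0.14 and a range of -0.19 to 0.41. Of all genes, 52.0% were higher (median 0.01), and of the brighter class 67.7% (median 0.08). With an unadjusted p under 0.05, 10 genes were higher, against 8.10% of all genes and 14.1% of the brighter class, and 0 were lower, against 5.75% of all genes. Alg11 led, with 0.41 ± 0.10 (95% interval 0.18 to 0.63, unadjusted p = 0.00179, adjusted p = 0.241 by limma), and was followed by Mgat2 (0.38), Mpi (0.34), Pmm2 (0.24), Alg12 (0.33), Dpagt1 (0.37), Gfpt1 (0.24), Alg9 (0.23), Mogs (0.35) and Gmppa (0.28). Of the dolichol carriers and the oligosaccharyltransferase, where none was below that p, Mpdu1 (0.17 ± 0.08) and Stt3b (0.14 ± 0.11) had the lowest p. The count of 10 was 2 after renewed quantile normalization (5.10% of all genes) and 0 with array width as a covariate (1.81%), settings that are described with the array widths. It was 5 without DIO replicate 2, 6 without control + HMB replicate 2 or DIO + HMB replicate 4, and 14 without DIO replicate 1.

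The interaction, the HMB difference under DIO less that under the control diet, was below 0 for 35 of the 43 genes. The median was -0.25, beside -0.05 for all genes and -0.08 for the brighter class. It was above 0 for 18.6% of the 43 genes, 43.4% of all genes and 36.1% of the brighter class. At an unadjusted p under 0.05, 0 genes were higher, against 1.63% of all genes, and 3 were lower, against 3.19%. They were Alg13 (-0.66, unadjusted p = 0.0121), Alg9 (-0.51 ± 0.19, unadjusted p = 0.0223) and Stt3a (-0.38 ± 0.16, unadjusted p = 0.0349), each with an adjusted p of 0.933 by limma. In the other roles the lowest p belonged to Gfpt1 (-0.37 ± 0.19), Mgat2 (-0.45 ± 0.24) and Alg5 (-0.26 ± 0.22). For Alg13, HMB and unsupplemented tumors differed by -0.20 in DIO and by 0.46 in the control diet. The same 3 control arrays enter this term, so it is not separate from the comparisons against control.

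Width was removed in 2 ways, by quantile normalizing the gene table again and by adding each array's width to the model. After renewed quantile normalization the median of the 43 genes relative to control was 0.16 in DIO + HMB, 0.12 in DIO and 0.17 in control + HMB tumors, with all-gene medians of -0.01, -0.00 and -0.00. The genes higher at an unadjusted p under 0.05 then numbered 6, 6 and 5, beside 5.40%, 3.62% and 4.31% of all genes, and 1, 0 and 0 genes were lower. With width as a covariate the medians were 0.02, 0.07 and 0.08, and the counts 0, 1 and 0, beside 2.04%, 3.36% and 2.39% of all genes. The number of genes above 0 was then 25, 33 and 27 of 43, beside 48.2%, 51.6% and 52.4% of all genes. Width and group moved together, so the covariate also takes up part of any group difference, and the part of each was not tested.

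**Figure D5:**
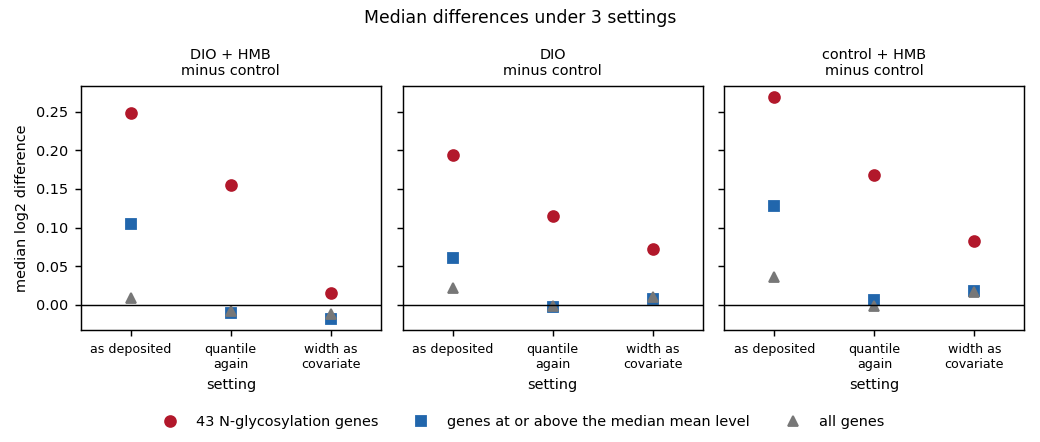
Median log2 difference from control of the 43 genes (red circles), of genes at or above the median mean level (blue squares) and of all genes (gray triangles), as deposited, after renewed quantile normalization and with array width as a covariate. The red medians of 0.25, 0.19 and 0.27 are 0.02, 0.07 and 0.08 with the covariate.

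Of 59 further genes of the pathway, listed for dolichol synthesis, other oligosaccharyltransferase subunits, lectins and degradation of misfolded glycoproteins, Golgi branching and the unfolded protein response, 57 were measured. Outside the unfolded protein response list, 33 of 42 were higher in DIO + HMB, 30 of 42 in DIO and 33 of 42 in control + HMB than in control tumors, with medians of 0.17, 0.12 and 0.15. With an unadjusted p under 0.05, 9, 5 and 7 of the 42 were higher, beside 8.00%, 4.31% and 7.22% of all genes, and 1, 0 and 1 were lower, beside 6.76%, 3.44% and 4.22%. Gnpnat1, the acetyltransferase after Gfpt1 in UDP-GlcNAc synthesis, was higher than control by 0.58 in DIO + HMB, 0.78 in DIO and 0.83 in control + HMB tumors. Edem1, a lectin that directs misfolded glycoproteins to degradation, was higher by 0.63 in DIO + HMB tumors (unadjusted p = 0.0015), and Edem3, its relative, by 0.39. Nagk, which salvages GlcNAc, was lower than control by 0.34 in DIO + HMB and by 0.29 in control + HMB tumors. B4galt1, a Golgi galactosyltransferase, was higher than control by 0.58 and Slc35a2, the Golgi carrier of UDP-galactose, by 0.45 in DIO + HMB tumors. None of these passed the adjusted threshold.

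Genes of the unfolded protein response were higher than control in 9 of 15 in DIO + HMB, 12 of 15 in DIO and 9 of 15 in control + HMB tumors, with medians of 0.11, 0.25 and 0.17. At an unadjusted p under 0.05, 3, 6 and 4 of the 15 were higher, beside the same shares of all genes (8.00%, 4.31% and 7.22%), and 1, 0 and 0 were lower (6.76%, 3.44% and 4.22%). Herpud1, which supports degradation at the endoplasmic reticulum, was higher than control by 0.54, 0.56 and 0.43, and Xbp1, a transcription factor of the response, by 0.54, 0.43 and 0.51 in the same order of groups. Hspa5, the main lumenal chaperone, was higher by 0.31 in DIO (unadjusted p = 0.015) and by 0.11 in DIO + HMB tumors. Below control were 6, 3 and 6 of the 15. Among them, Dnajb11 differed by -0.29, -0.20 and -0.24, and Manf by -0.35 in DIO + HMB tumors (unadjusted p = 0.024 by limma). The other genes of this list with ERSE differed in DIO + HMB tumors by -0.16 (Hsp90b1), 0.11 (Pdia6), -0.04 (Dnajc3) and 0.12 (Creld2). For the same genes in order, the differences from control were 0.04, 0.19, -0.04 and 0.37 in DIO tumors. They were -0.09, 0.24, -0.03 and 0.17 in control + HMB tumors. In DIO + HMB relative to DIO tumors, 4 of the 15 were higher, beside 47.9% of all genes. The median was -0.20, beside 0.01 for the 43 glycosylation genes and -0.01 for all genes. Manf (-0.35) and Hyou1 (-0.33) were lower at an unadjusted p under 0.05, against 3.75% of all genes, and 0 were higher, against 3.34%.

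Marker genes of other cells also had different levels in the groups. Among B cell and plasma cell markers, 8 of 9 were higher in DIO + HMB than in control tumors (median 0.87), 1 of 9 in DIO (median -0.36) and 7 of 9 in control + HMB (median 0.24). Adipocyte markers were higher than control in 9 of 9 in DIO + HMB (median 1.32), 6 of 9 in DIO (median 0.29) and 9 of 9 in control + HMB tumors (median 0.54). For endothelial markers the counts were 10 of 10 (median 0.35), 4 of 10 (median -0.11) and 9 of 10 (median 0.19), and for macrophage markers 8 of 10 (median 0.19), 6 of 10 (median 0.04) and 10 of 10 (median 0.16) in the same order of groups. T cell markers were higher in 7 of 9 (median 0.29), 1 of 9 (median -0.53) and 7 of 9 (median 0.09), and fibroblast markers in 9 of 10 (median 0.27), 6 of 10 (median 0.12) and 5 of 10 (median 0.04). Epithelial and ductal markers were higher in 6 of 8 in each group (medians 0.19, 0.21 and 0.05). In DIO + HMB relative to DIO tumors 9 of 9 B cell and plasma cell markers were higher (median 1.31), as were 9 of 9 T cell markers (median 0.82) and 9 of 9 adipocyte markers (median 1.11). The B cell and plasma cell score ran from -0.40 to 2.79 in DIO + HMB, from -0.55 to -0.53 in DIO, from -0.21 to 0.07 in control + HMB, and from -0.33 to -0.12 in control tumors. In the same order of groups, the adipocyte score ran from -1.08 to 2.54, -1.51 to 0.49, -0.35 to 0.74 and -1.93 to 1.06. The T cell score ran from -0.19 to 1.35, -0.77 to -0.23, -0.42 to 0.52 and -0.27 to 0.39. The adipocyte ranges of the 4 groups overlapped. The skeletal muscle score spread over all groups, from -1.35 to 3.76 in DIO + HMB, from -1.33 to 2.48 in DIO, from -1.44 to 0.47 in control + HMB and from -1.21 to 1.97 in control tumors. Exocrine pancreas markers were dim, from Prss1 between 1.19 and 2.40 to Cela1 between 3.68 and 4.74. The median of all genes lay between 4.27 and 4.65 in each array. The part of other cell types in the differences of the glycosylation genes was not tested.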

How the data were processed

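Each of 13 tumors was measured on an Affymetrix Mouse Gene 2.1 ST array. The authors deposited RMA-normalized log2 values, and their processing notes name RMA, affy and limma, with versions and genome build not given in the sources used here. Of 41345 probe sets, 23521 carried 1 gene symbol, and the one with the highest mean stood for each of 22180 genes, without a filter. No columns of other samples were present. Arrays carry no read depth, and their number limits the precision. Groups came from the labels, each array being a different mouse.

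limma 3.58.1 (lmFit and eBayes, R 4.3.3) was fitted to all 13 arrays with a mean for each of 4 groups (9 residual degrees of freedom), was tested on simulated data, and gave two-sided p-values adjusted by Benjamini-Hochberg over all genes (threshold 0.05). Per-array values were printed for the 3 genes of lowest p in each of 5 pairwise comparisons, the F test and the interaction, and for 5 others (Dpagt1, Alg10b, Dpm3, Calr and Canx) and, in 1 comparison, Dolk, that were chosen after their values were seen. Genes with an unadjusted p under 0.05 and the lowest p of a role were named. The 43 genes, the other gene lists, the tests and the promoter motifs were chosen with earlier results of these data known. Promoter windows came from RefSeq (GRCm38.p6), which held a window for 38 of the 43 genes.

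Replicate numbers are shared between groups, but only 3 of 18 same-numbered pairs had deviations correlated over 0.1, so they were not taken as pairs. Alternatives were renewed quantile normalization, array width as a covariate, leaving out dim genes, fits of 2 groups, a replicate block and leaving out each array.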

Additional observations from a re-analysis of the deposited data

Results flagged for a closer look

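Of 68 gene and list values checked in DIO + HMB, the group with 4 tumors, 5 had 1 tumor far from the others, and chance flags about 1 in 20. Mogs was 6.80 in DIO + HMB replicate 4, while the nearest of the other 3 tumors had 6.39. The B cell and plasma cell score was 2.79 in replicate 1 (nearest 0.11), and the T cell score was 1.35 in the same tumor (nearest 0.02). The endothelial score was 0.68 in replicate 2 (nearest 0.10), and the skeletal muscle score was 3.76 in replicate 3 (nearest -1.05). Scores are means of log2 values centered on each gene's mean over 13 arrays.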

How the results depend on the processing

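None of the 43 genes passed the adjusted threshold under any alternative. The count over all genes, 0 as reported, was 1 for control + HMB against control with dim genes left out. When single arrays were left out it ran from 0 to 1 for control + HMB against control, from 0 to 3 for DIO + HMB against control (3 without control replicate 3) and from 0 to 1 for DIO + HMB against DIO. Against control, renewed quantile normalization gave medians of 0.16 in DIO + HMB and 0.17 in control + HMB. With width as a covariate the medians were 0.015 in DIO + HMB, 0.072 in DIO and 0.083 in control + HMB. With the covariate the median was -0.11 for DIO + HMB against DIO (10 of 43 higher, beside 45.8% of all genes). For HMB averaged over diets it was -0.011 (19 higher, beside 49.4%). In all, 6 named values changed sign there, namely, for control + HMB against control, Alg13 (-0.0027) and Mogs (-0.038), for DIO + HMB against control, Alg2 (-0.10), and for HMB averaged over diets, Alg12 (-0.011), Dpagt1 (-0.049) and Mogs (-0.044); the cause was not tested. When single arrays were left out, the median for DIO + HMB against control ran from 0.15 (without control replicate 1) to 0.29, and it was 0.15 without both control replicate 1 and DIO replicate 2, a choice made after seeing the data. The number higher in DIO + HMB against control + HMB ran from 8 to 24. With the replicate number as a block the medians against control were 0.20 in DIO + HMB, 0.19 in DIO and 0.27 in control + HMB. Then 7, 7 and 9 genes were higher at an unadjusted p under 0.05. The shares were 6.70%, 3.85% and 6.15% of all genes, and 10.3%, 4.92% and 10.0% of the brighter class. For DIO + HMB against DIO and for averaged HMB the block left 0 and 5 of the 43. The shares were 3.47% and 6.82% of all genes, and 4.54% and 11.2% of the brighter class. DIO + HMB replicate 4, alone with its number, drops out of the block. Under the block, the number of all genes past the threshold was 0 in each test, and 4 of 12 arrays correlated best with an array of their own number. A fit of DIO and control alone left 2 of the 43 genes higher at an unadjusted p under 0.05. The share of all genes was not counted for that fit. After renewed quantile normalization the genes higher at that p numbered 6 for DIO + HMB and 5 for control + HMB against control, and 2 for averaged HMB. The shares of all genes were 5.40%, 4.31% and 5.10%. The median for averaged HMB changed sign with the covariate, from 0.14 as reported to -0.011. Besides it, the medians of 2 comparisons, both near 0, changed sign. For DIO + HMB against DIO (0.010 as reported) it was -0.038 after renewed quantile normalization, -0.012 under the block, -0.048 without DIO replicate 2 and also below 0 without DIO + HMB replicate 3 or replicate 4, and for DIO + HMB against control + HMB (-0.035) it was 0.0089 without DIO + HMB replicate 1. Without DIO + HMB replicate 4, the genes higher at that p in DIO + HMB against control numbered 7, where 13 were reported. Shares of all genes were not counted for the fits that left out an array. Without DIO replicate 1, the DIO differences from control were 0.27 for Alg13, 0.29 for Alg12 and 0.24 for Mgat2.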
